A study of Mus musculus with 6 samples.

Results

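Interferon-stimulated genes were followed across the CD45+ cells of the midbrain of Line 61 mice, which express human α-Syn under the Thy1 promoter. The set was chosen by name and holds 49 genes. Of these, 47 have a row among the 32285 genes of the count matrices, while Mx1 and Mx2 are not analysed here. All mice were males injected at 12 to 15 weeks of age into both striata with PBS, α-Syn monomer or preformed α-Syn fibrils (PFF), and cells were collected at week 6. PFF mice received by gavage either AZD1480, an inhibitor of JAK1 and JAK2, at 25 mg/kg, or a DMSO vehicle (VH), from week 2 for 4 weeks. The groups are named PBS, monomer, PFF + VH and PFF + AZD1480, and 3 to 5 ventral midbrains were pooled for a sample.

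Each group was sequenced as 1 library, and a library and its condition cannot be told apart. Hashtags are oligonucleotides on antibodies that label cells before pooling, and there were 4 for PFF + VH and 5 for PFF + AZD1480. Each hashtag was taken as 1 replicate, which the sources do not spell out, so that p-values measure the spread between hashtags of 2 libraries. PBS and monomer have no hashtags and entered no test. Filtering kept 13021 (PFF + AZD1480) to 34436 (PFF + VH) cells, with a median of 2306 UMIs in PFF + VH and 6616 to 7028 in the other libraries. Pairs of libraries shared between 45 and 151 cell barcodes, at most 1.03% of the smaller one. A single hashtag was called in 52.0% of cells with VH and in 81.0% with AZD1480, and the remaining cells entered library values only. Another hashtag caller, MULTIseqDemux, gave a single hashtag to 16.9% of cells with VH and 73.8% with AZD1480.

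Cells were given to a class by the UMIs of marker genes, none of which is an interferon-stimulated gene. In the order PBS, monomer, PFF + VH and PFF + AZD1480, MG (the resident macrophages of brain tissue) were 13340, 13898, 32191 and 11794 cells. Border macrophages, which line vessels and meninges, were 213, 125, 212 and 231 cells. T cells were 132, 88, 63 and 71, NK cells 83, 80, 78 and 22, and B cells 48, 26, 45 and 30. The median cell carried 153 to 182 UMIs of its own markers per 10000 in MG, 94.5 to 133 in border macrophages, 50.7 to 57.7 in T cells, 34.4 to 81.7 in NK cells and 122 to 142 in B cells. MG markers were still at 30.3 to 39.2 per 10000 in border macrophages and at 5.73 to 23.0 in the lymphoid classes, and their part in the class values was not tested.

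Type I interferon binds a receptor made of Ifnar1 and Ifnar2, on which the kinases Jak1 and Tyk2 act. A complex that contains Stat2 and Irf9 then binds the interferon-stimulated response element (ISRE), and the genes behind that element block viral RNA, viral entry and protein synthesis. Interferon-gamma signals through Jak1 and Jak2 to a different element (GAS). MG are known to switch on such genes in infection, in ageing and around protein aggregates.

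RefSeq promoters of build GRCm38.p6, from 250 bases before to 50 bases after the start, were at hand for 36 of the 47 genes. The ISRE core, GAAANNGAAA on either strand, was present in 17 of the 36 (47.2%), against 1079 of 27025 genes (3.99%). In the 250 bases before the start it was present in 13 of the 36 (36.1%), against 3.46% of all genes. GAS letters, TTCNNNGAA, whose other strand reads the same, were present in 8 of the 36 (22.2%), against 9.55% of all genes. A match describes the letters only. The stretches below show the cores in capitals, with 20 bases on each side unless the start came first, because this element, which the rule did not use, was present in 17 of the 36. They are given 5′ to 3′ on the strand of the gene, and come from genes for RNA-binding proteins (Ifit1, Ifit3), an antiviral enzyme (Rsad2), the modifier (Isg15), an RNA sensor (Oas1a) and a surface tether (Bst2). Ifit1 lies at chr19:34640765-34640833 (+), Ifit3 at chr19:34583353-34583436 (+), Rsad2 at chr12:26456543-26456592 (-), Isg15 at chr4:156200855-156200916 (-), Oas1a at chr5:120907526-120907565 (-) and Bst2 at chr8:71537567-71537622 (-).
Ifit1: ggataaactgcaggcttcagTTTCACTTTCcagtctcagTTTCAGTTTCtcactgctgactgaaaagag
Ifit3: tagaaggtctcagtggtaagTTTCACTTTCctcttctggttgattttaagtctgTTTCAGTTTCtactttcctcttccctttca
Rsad2: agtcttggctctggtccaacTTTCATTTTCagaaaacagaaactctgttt
Isg15: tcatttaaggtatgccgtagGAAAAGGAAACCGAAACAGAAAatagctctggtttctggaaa
Oas1a: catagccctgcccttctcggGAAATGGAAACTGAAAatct
Bst2: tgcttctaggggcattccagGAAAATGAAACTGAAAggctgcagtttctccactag
Ifit1 and Ifit3 hold 2 cores with a gap between them, Rsad2 holds 1, Oas1a and Bst2 hold 2 that overlap, and Isg15 holds 3 that overlap. The stretch of Ifit3b, at chr19:34607749-34607832, has the same letters as that of Ifit3 at all 84 positions. These genes are near-identical copies, and how the counting shared reads between them is uncertain.

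In MG, these genes were higher in PFF + VH than in PBS and monomer. In PFF + AZD1480 most were lower than in either when all MG were summed. Levels are given as UMI counts scaled by the total of the class (CPM). The 47 genes added up to 2748 CPM after PFF + VH (exact Poisson 95% interval 2738 to 2758), against 1898 in PBS (1890 to 1907) and 1952 in monomer (1943 to 1961). With PFF + AZD1480 the sum was 1751 CPM (1742 to 1760). Intervals cover counting error only. Library differences were not tested.

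Of the 47 genes, 43 were higher in PFF + VH than in PBS and 29 were at least 1.5-fold higher, against 13.6% of all genes. The median ratio was 1.75, against 0.955 over all genes. Over monomer, all 47 were higher and 27 were at least 1.5-fold higher, against 14.6% of all genes. Monomer over PBS had 23 genes higher and 24 lower, with 3 at least 1.5-fold higher, against 5.06% of all genes. These 3 were Rsad2, Oasl1 and Ifi204.

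Ifi44, an interferon-induced cytosolic protein, was at 0.281 CPM in PBS, 0.340 in monomer and 1.83 in PFF + VH, and at 0.150 CPM with AZD1480. Its ratio of PFF + VH to PBS, 6.51, was the highest of the set. Rsad2 (viperin), which makes a chain-terminating nucleotide, was at 1.91, 3.64, 9.12 and 2.29 CPM in the same order. Ifi27l2a, a small mitochondrial and nuclear membrane protein, was at 38.1, 33.6, 164 and 53.3 CPM. For Ifitm3, which hinders the entry of viruses from endosomes, the levels were 23.2, 25.7, 92.7 and 38.0 CPM. The ratios of PFF + VH to PBS were 4.78 for Rsad2, 4.31 for Ifi27l2a and 4.00 for Ifitm3. The OAS proteins sense double-stranded RNA or share the fold of those that do. Their ratios to PBS were 3.49 for Oasl1, 3.48 for Oas2, 3.40 for Oasl2 and 2.82 for Oas3. Ifi207, a nuclear DNA-binding protein of the Ifi200 family, was at 7.91 CPM in PBS and 25.3 in PFF + VH, and Ms4a4c, a membrane protein, at 3.31 and 8.38 CPM. At the other end, Herc6, the ligase for Isg15 in mice, was at 54.7 CPM in PBS and 51.3 in PFF + VH, and Adar, Parp9 and Ddx58 had ratios between 0.980 and 0.985.

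PFF + AZD1480 lay below PBS for 34 of the 47 genes, and 9 were at least 1.5-fold lower, against 5.98% of all genes. The median ratio was 0.859, against 0.968 over all genes. Against monomer, 36 were lower and 10 at least 1.5-fold lower, against 5.93% of all genes. Xaf1, a pro-apoptotic binding partner of XIAP, was at 10.9 CPM in PFF + AZD1480 and 23.3 in PBS, and Ifit1 at 1.46 and 3.00 CPM. Ratios to PBS were 0.475 for Cmpk2, a nucleotide kinase next to Rsad2, 0.497 for Ifit3b, 0.531 for Ifit3 and 0.624 for Usp18. Ifi207 and Ifitm3 went the other way, with ratios of 1.67 and 1.64. The PBS library is shared by these comparisons.

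**Figure D1:**
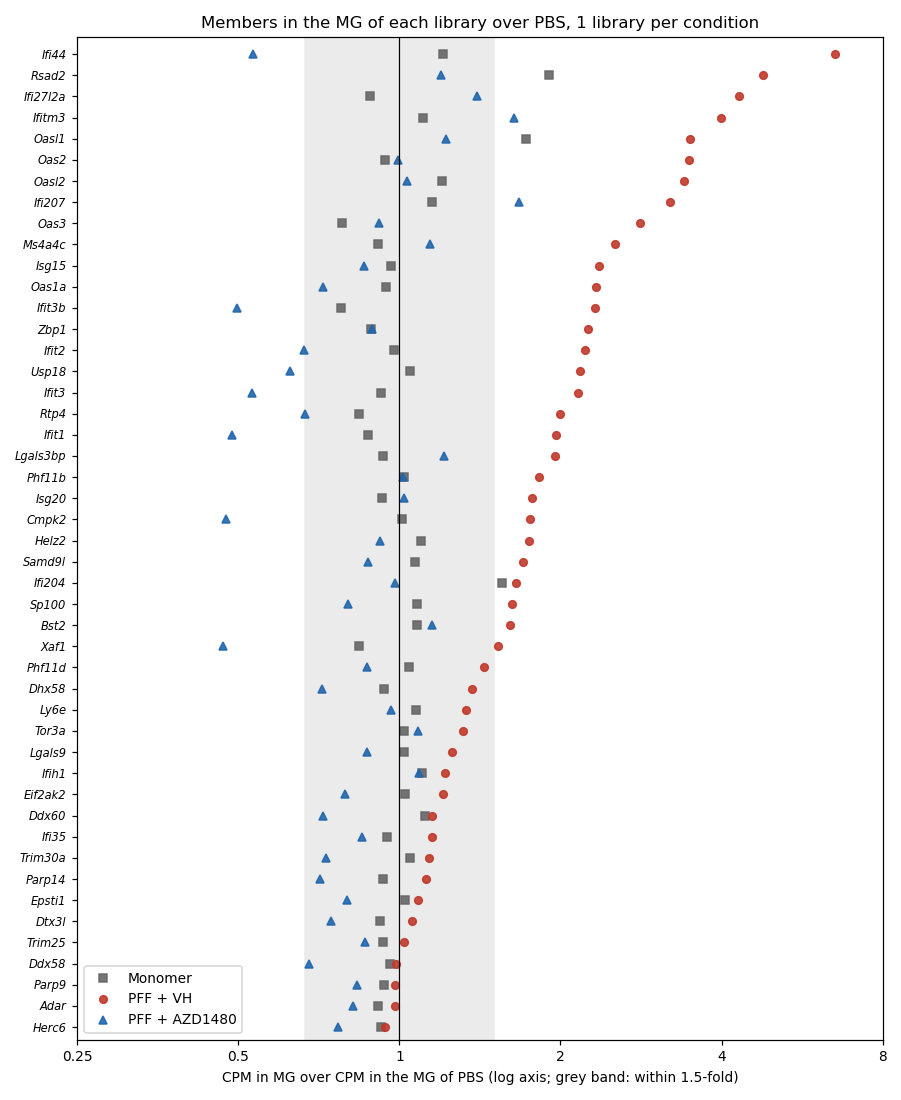
Ratio of the CPM of each gene in MG to its CPM in the MG of PBS, on a log axis, for monomer (grey squares), PFF + VH (red circles) and PFF + AZD1480 (blue triangles), with 1 library per condition. PFF + VH lies to the right of 1 for 43 of the 47 genes and PFF + AZD1480 to the left of 1 for 34.

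The libraries differed in depth, so the sum was also taken within bins of cells by UMI count. In cells of 500 to 1000 UMIs the genes added up to 2555 CPM with PFF + VH, 1422 in PBS, 1652 in monomer and 1621 with AZD1480. Between 1000 and 2000 UMIs the sums were 2707, 1367, 1464 and 1541 CPM in that order, and between 2000 and 4000 UMIs 2746, 1736, 1915 and 2087. In the deepest bin, 4000 to 15000 UMIs, they were 2771, 1912, 1962 and 1734 CPM. PFF + VH was the highest library in each bin. PFF + AZD1480 lay above PBS in the 3 shallower bins and below it in the deepest, which holds most of the cells of both. Gene by gene, PFF + VH was above PBS for 39, 39, 42 and 44 of the 47 from the shallowest to the deepest bin. PFF + AZD1480 was below PBS for 12, 20, 22 and 35, so that most genes of the set were below PBS in the deepest bin only, and below PFF + VH for 35, 42, 45 and 47. The shares over all genes were not counted within bins, so these counts have no background beside them. Cells of PFF + VH without a hashtag stood at 2416 CPM and those with a hashtag of their own at 2825 CPM.

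The test over hashtags compared AZD1480 with VH after PFF in MG. There were 1215 to 5118 MG in a hashtag. Of 46 genes tested, 43 fell with AZD1480 and 0 rose (edgeR quasi-likelihood test, Benjamini-Hochberg adjusted over 13632 genes), against 14.7% of all genes that fell. The median log2 fold change was -1.04, against -0.000891 over all genes tested, and 23 of the 46 fell by more than 2-fold. The share of all genes past 2-fold was not counted. Of the 43, Oasl1, Ifi44 and Cmpk2 were under 1 CPM in every AZD1480 hashtag and passed the filter on low counts through the VH hashtags. Of the other 43 genes tested, 40 fell, with a median of -0.97. Oas2, counted among these, also passed that filter through VH. It was at 2.16 to 4.23 CPM with VH and 0.418 to 1.26 with AZD1480 (median 0.534). In 40 of the 46, every PFF + AZD1480 hashtag lay below every PFF + VH hashtag, against 10.0% of all genes. Leaving out each hashtag in turn gave 43 or 44 genes. The 16 tested genes with an ISRE core had a median log2 fold change of -1.09 and the 19 without one -0.97. For a core in the 250 bases before the start, the medians were -1.42 (12 genes) and -0.88 (23 genes). Neither difference was tested. By role, the median log2 fold change ran from -2.50 for the nucleotide effectors (2 genes, Cmpk2 one of them), -2.35 for the IFIT and -1.97 for the OAS genes to -0.60 for the ubiquitin and ADP-ribose enzymes. The OAS genes tested were 4, with Oasl1 and Oas2 among them. The difference between roles was not tested.

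The IFIT proteins bind foreign RNA and keep it from being translated, and all 4 fell. Ifit1 was at 5.24, 5.79, 7.65 and 7.71 CPM in the PFF + VH hashtags and at 1.26, 1.55, 0.523, 1.32 and 2.14 CPM in those of PFF + AZD1480. Its lowest VH value was above its highest AZD1480 value, and it fell by 2.35 ± 0.23 on the log2 scale (SE, edgeR adjusted p = 4.8e-05). Ifit3 was at 21.4, 22.3, 24.0 and 23.2 CPM with VH and at 3.08, 4.72, 1.88, 6.92 and 6.01 CPM with AZD1480, and fell by 2.36 ± 0.22 (adjusted p = 4.73e-05). The VH hashtags were close together and the groups far apart. Ifit2 was at 21.9, 20.8, 25.7 and 28.6 CPM with VH and at 4.41, 7.09, 3.77, 9.12 and 3.74 CPM with AZD1480. It fell by 2.09 ± 0.21, and Ifit3b by 2.51 ± 0.34, both without overlap.

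Isg15 is a ubiquitin-like protein that is attached to other proteins, and Usp18 removes it and also holds down the receptor. Isg15 was at 51.4, 51.5, 56.5 and 48.8 CPM with VH and at 11.8, 18.2, 15.6, 20.9 and 19.9 CPM with AZD1480. It fell by 1.65 ± 0.12 on the log2 scale (edgeR adjusted p = 1.36e-05), with no overlap. Usp18 was at 10.3, 10.5, 14.0 and 9.24 CPM with VH and at 2.58, 3.11, 1.26, 3.79 and 3.60 CPM with AZD1480, and fell by 1.96 ± 0.21 (adjusted p = 8.25e-05). The third gene of this group, Herc6, fell by 0.37 and its hashtags did not overlap either.

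Rsad2 and Cmpk2 lie side by side and act on nucleotides. Rsad2 was at 7.46, 10.8, 11.4 and 9.82 CPM with VH and at 0.944, 1.24, 0.941, 3.08 and 0.934 CPM with AZD1480. Its log2 fold change was -2.72 ± 0.29 (edgeR adjusted p = 7.17e-05), and AZD1480 hashtag 4 stood above the other four. Cmpk2, at 1.58 to 2.34 CPM with VH and 0.133 to 0.659 with AZD1480, fell by 2.27 ± 0.29 (adjusted p = 0.000207). It passed the filter on low counts through the VH hashtags.

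Among the OAS genes, 4 of 4 tested fell. Oasl2 was at 20.01, 13.5, 12.3 and 12.1 CPM with VH and at 3.08, 4.10, 1.88, 5.44 and 4.14 CPM with AZD1480. Its groups did not overlap, and it fell by 1.96 ± 0.22 (edgeR adjusted p = 9.31e-05). Oas1a was at 15.7, 8.44, 10.95 and 9.50 CPM with VH and at 2.45, 3.54, 2.20, 3.24 and 3.07 CPM with AZD1480, a log2 fold change of -1.96. Oasl1 fell by 2.20 and Oas2 by 1.98, and both passed the filter on low counts through the VH hashtags. Oas3 was too low to be tested, at 33 UMIs over the VH and 8 UMIs over the AZD1480 hashtags.

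Of the other induced proteins, 6 of 6 fell. Ifi44 had the largest fitted fall, and is one of the genes that passed the filter through VH alone. Ifi44 was at 1.86, 3.14, 1.24 and 1.80 CPM with VH, while with AZD1480 it was at 0.0629, 0.249 and 0.133 CPM in hashtags 1, 2 and 5 and had 0 UMIs in hashtags 3 and 4. Its log2 fold change was -4.41 ± 0.54 (edgeR adjusted p = 0.000167), from 123 UMIs with VH and 6 with AZD1480. Ifi27l2a was at 244, 165, 193 and 119 CPM with VH and at 33.9, 94.5, 37.7, 37.1 and 41.8 CPM with AZD1480. AZD1480 hashtag 2 stood apart but still lay below every VH hashtag, and the log2 fold change was -1.91 ± 0.29 (adjusted p = 0.000584). Xaf1 fell by 1.79, Rtp4, a chaperone of membrane receptors, by 1.72, Epsti1 by 0.49 and Tor3a by 0.39.

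Membrane and surface proteins fell in 4 of 4 cases, with log2 fold changes between -0.54 and -1.50 and a median of -0.97. Ifitm3 was at 136, 96.4, 90.2 and 73.3 CPM with VH and at 20.3, 53.8, 36.3, 36.6 and 33.1 CPM with AZD1480, and fell by 1.5 ± 0.22 (edgeR adjusted p = 0.000535). Bst2 (tetherin), which holds budding virus at the cell surface, was at 220, 170, 176 and 153 CPM with VH and at 94.9, 159, 110, 103 and 131 CPM with AZD1480. Here the hashtags overlapped, since AZD1480 hashtag 2 lay above VH hashtag 4, and the fall was 0.64 ± 0.14 (adjusted p = 0.00486). Ly6e, a surface protein linked to the membrane by a lipid anchor, had the highest counts of the set. It was at 987, 877, 945 and 925 CPM with VH and at 608, 714, 700, 642 and 672 CPM with AZD1480, and fell by 0.54 ± 0.06 (adjusted p = 6.63e-05).

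Sensors and RNA enzymes fell in 8 of 9 cases. Zbp1, which senses Z-form nucleic acid, was at 11.1, 9.62, 8.95 and 5.81 CPM with VH and at 2.77, 3.17, 2.09, 3.46 and 3.34 CPM with AZD1480, and fell by 1.61 ± 0.19 (edgeR adjusted p = 0.000145). Eif2ak2 (PKR), the kinase that stops translation on double-stranded RNA, was at 62.9, 51.8, 52.6 and 59.4 CPM with VH and at 36.0, 37.2, 30.6, 41.7 and 38.0 CPM with AZD1480. It fell by 0.67 ± 0.07 (adjusted p = 8.25e-05), a smaller change than that of Zbp1, and neither gene overlapped between groups. Ddx58 (RIG-I) fell by 0.60 and Dhx58 (LGP2), which acts beside it, by 1.12. Ifih1 (MDA5), the sensor of long double-stranded RNA, was at 31.3 to 37.6 CPM with VH and 27.9 to 38.1 with AZD1480 and did not pass the test (log2 fold change -0.20, adjusted p = 0.131).

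Nuclear regulators fell in 6 of 7 cases, with log2 fold changes between -0.54 and -1.196. Ifi204, a nuclear relative of Ifi207, was at 6.74, 23.1, 9.23 and 26.7 CPM with VH and at 6.38 to 11.4 CPM with AZD1480, so that VH hashtags 2 and 4 stood above all others and 1 and 3 among those of AZD1480. It did not pass the test (log2 fold change -0.88, adjusted p = 0.0763). Ubiquitin and ADP-ribose enzymes fell in 4 of 5 cases, by at most 0.75, and Trim25, the ligase that activates RIG-I, did not pass (log2 fold change -0.24, adjusted p = 0.0649). Both lectin-related genes fell. Lgals3bp, a secreted ligand of galectin-3, was at 164, 156, 123 and 123 CPM with VH and at 62.1, 123, 67.0, 67.2 and 79.2 CPM with AZD1480. It fell by 0.88 ± 0.17 (adjusted p = 0.00325), and AZD1480 hashtag 2 reached just under the lowest VH hashtag, at 123.1 against 123.2 CPM.

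**Figure D2:**
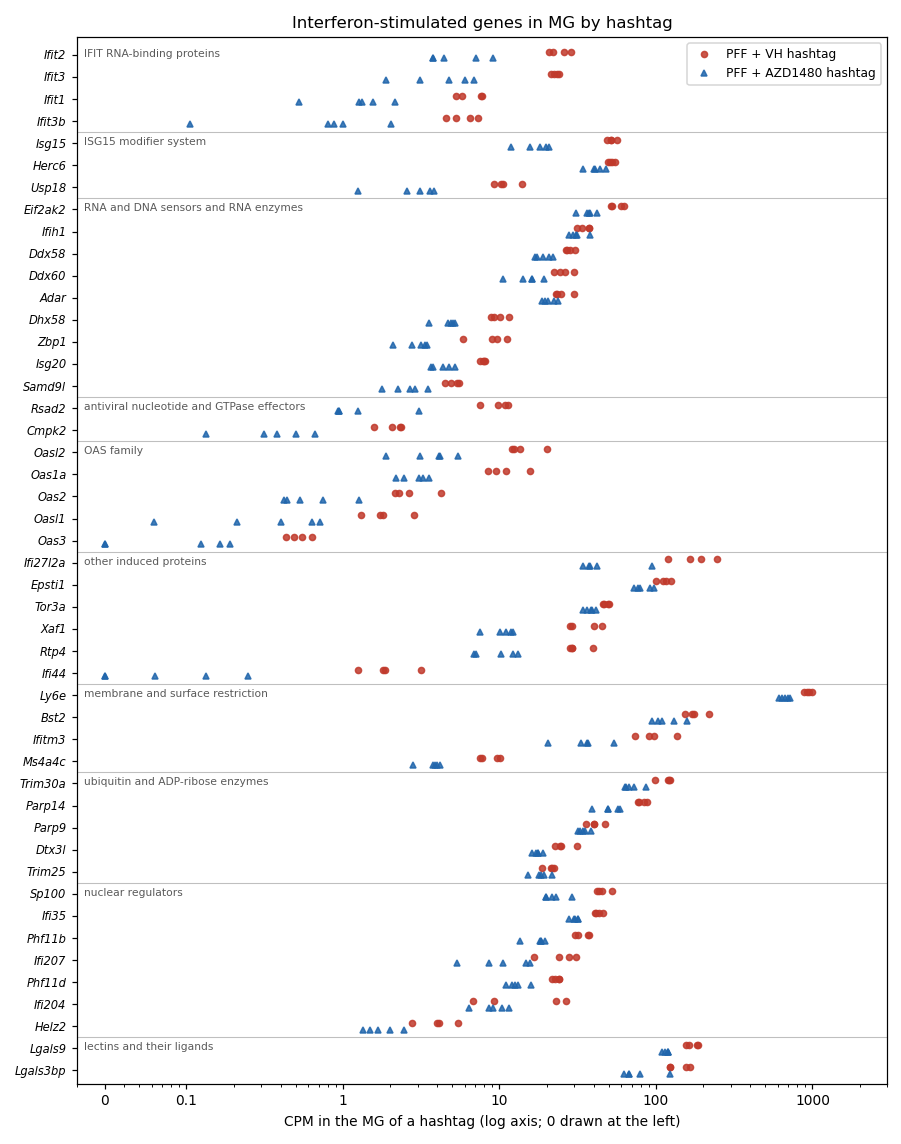
CPM of each gene in the MG of every hashtag on a log axis, with 4 PFF + VH hashtags (red circles) and 5 PFF + AZD1480 hashtags (blue triangles), grouped by role and ordered by level in PFF + VH, and with 0 drawn at the left edge. The triangles lie to the left of all circles for every gene tested but Ifi204, Bst2, Adar, Parp9, Trim25 and Ifih1.

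Lists of markers of other cells were also summed inside MG, and several of these sums differed between the groups. Whether their UMIs came from other cells or from MG was not tested. Markers of T cells summed to 11.4 to 13.6 CPM in the VH hashtags and 4.08 to 7.34 in those of AZD1480, markers of NK cells to 6.27 to 10.7 and 1.01 to 2.41, and markers of monocytes to 16.4 to 20.4 and 7.43 to 12.9 CPM. Endothelial markers without Pecam1 (9.27 to 10.3 and 4.41 to 8.51 CPM), B cell markers without Ighm (28.6 to 32.4 and 20.4 to 25.4) and astrocyte markers without Slc1a2 (3.72 to 4.74 and 1.88 to 3.67) were lower with AZD1480 too, while monocyte markers without Plac8 overlapped (10.9 to 11.99 and 5.86 to 11.6). The sum of neutrophil markers was 329 to 357 CPM with VH and 377 to 439 with AZD1480, most of it from Csf3r, and without Csf3r it was 48.7 to 58.5 and 47.8 to 65.3 CPM. Border macrophage markers stood at 86.9 to 110 and 90.6 to 109 CPM, and without Stab1, the most abundant of them, at 39.0 to 56.4 and 22.7 to 42.2 CPM. None of the markers in these lists was at 0 in both groups, and their part in the result was not tested. With the stricter marker limit for MG, 43 of 46 genes fell, where 1826 of 13169 genes fell. The markers of other cells were not summed under that limit.

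The pathway around these genes moved unevenly in MG. Of 29 genes of the pathway with a row, 26 were tested, 10 fell and 5 rose, against 14.7% of all genes that fell and 12.4% that rose. Irf7, which drives the second wave of interferon, was at 8.34 to 13.4 CPM with VH and 1.46 to 4.83 with AZD1480 (log2 fold change -1.78, edgeR adjusted p = 0.000246). Irf9 was at 39.7 to 44.8 and 19.5 to 27.2 CPM (log2 fold change -0.84) and Stat2 at 26.6 to 36.7 and 15.4 to 22.9 CPM (-0.72). None of these overlapped between groups. Irf1 did not pass the test (log2 fold change -0.30, adjusted p = 0.0794). The feedback inhibitor Socs1 fell by 0.81 and Socs3 by 0.35. Of the receptors, Ifnar2 fell by 0.43, while Ifnar1 rose by 0.15 and Ifngr1 by 0.26 on the log2 scale. The kinases Jak1 and Jak2 did not pass the test (adjusted p = 0.591 and 0.0782), and Tyk2 rose by 0.18. Cgas, the cytosolic DNA sensor, fell by 0.47, Tlr3 by 0.41 and Tmem173 (STING) by 0.13, and Tlr7 rose by 0.32 and Irf5 by 0.20. Ifnar1, Tyk2, Irf5 and Tmem173 passed narrowly (edgeR adjusted p = 0.0352, 0.0343, 0.0381 and 0.0335). These calls, and those of Ifngr1, Socs1 and Socs3, were lost under an alternative setting. Of the ligands, Ifnb1 had 83 UMIs over the VH and 67 over the AZD1480 hashtags (log2 fold change -0.44, adjusted p = 0.487), and Ifna2 and Ifna4 had 0 UMIs in both. Ifng, too low to be tested, had 23 and 8 UMIs, at 0.276 to 0.475 CPM with VH and 0 to 0.534 with AZD1480, which overlapped. In the MG of the whole libraries Ifng had 50 UMIs with PFF + VH, against 28 for PBS, 11 for monomer and 12 with AZD1480, and the interval of PFF + VH lay apart from those of monomer and PFF + AZD1480 but not of PBS.

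The response was also counted cell by cell. MG were thinned to 1000 UMIs, and a cell was counted when at least 3 of 14 genes had a UMI (Ifit1, Ifit2, Ifit3, Ifit3b, Isg15, Rsad2, Oasl1, Oasl2, Usp18, Cmpk2, Ifi44, Rtp4, Xaf1 and Zbp1). Such cells were 58 of 12837 MG in PBS (0.452%, exact binomial 95% interval 0.343 to 0.584), 50 of 13131 in monomer (0.381%, 0.283 to 0.502), 272 of 27544 in PFF + VH (0.988%, 0.874 to 1.11) and 32 of 11467 in PFF + AZD1480 (0.279%, 0.191 to 0.394). Thinning left out 503, 767, 4647 and 327 shallower MG. By hashtag the share was 1.21, 1.16, 1.36 and 1.01% with VH and 0.226, 0.394, 0.0762, 0.369 and 0.0868% with AZD1480. Every VH hashtag was above every AZD1480 hashtag. The means were 1.19% ± 0.14 (SD, n = 4) and 0.231% ± 0.150 (SD, n = 5), a difference of -0.955 percentage points (two-sided exact permutation test, p = 0.0159, the smallest that 4 against 5 hashtags allow). Without thinning the difference was -3.09 percentage points, at the same exact p. In border macrophages 7 of 200 cells were counted in PBS, 2 of 121 in monomer, 2 of 188 with VH and 5 of 201 with AZD1480. In the same order T cells had 2 of 131, 4 of 87, 0 of 62 and 1 of 71, NK cells 1 of 81, 2 of 80, 2 of 77 and 0 of 22, and B cells 0 of 46, 0 of 26, 0 of 40 and 0 of 30. A count of 0, taken as 3 counts of the total, allows a share of up to 6.52, 11.5, 7.5 and 10% of the thinned B cells, 4.84% of T cells with VH and 13.6% of NK cells with AZD1480. Without thinning, 4 of 48, 1 of 26, 3 of 45 and 0 of 30 B cells were counted.

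**Figure D3:**
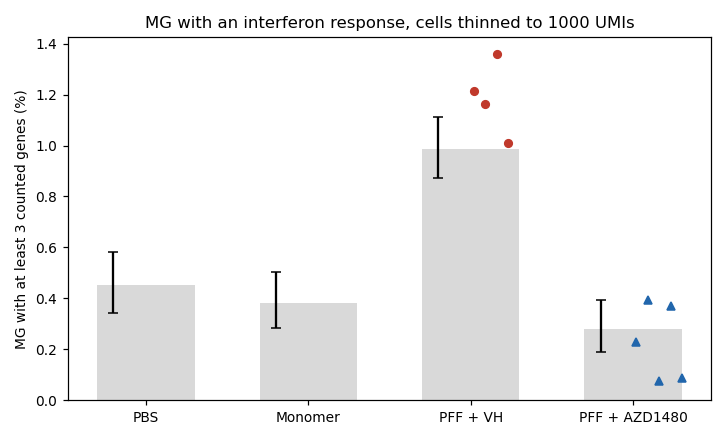
Share of MG with at least 3 of the 14 genes after thinning to 1000 UMIs, as a bar per library with its exact binomial 95% interval and as a point per hashtag (red circles PFF + VH, blue triangles PFF + AZD1480). The VH hashtags lie between 1.01 and 1.36% and the AZD1480 hashtags between 0.0762 and 0.394%.

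In PFF + VH some of the genes were many times higher in these few cells than in other MG, and others only slightly higher. For each of the 14 genes the cells were picked by the other 13. Ifit3 and Ifit3b are near-identical and picked cells for each other, so no value is given for them, and both counted toward the picks of the other genes. Ifit1 was 56.7-fold higher in the picked MG than in the rest, and 34.6% of its UMIs lay in 0.926% of the cells, so that most of them lay in the rest. Rsad2 was 45.2-fold, Ifit2 41.4-fold and Isg15 27.4-fold higher. Among the genes not used to pick cells, Isg20, an exonuclease, was 20.4-fold and Ifi207 17.3-fold higher. By contrast, Ly6e was 1.65-fold, Lgals9 1.94-fold and Lgals3bp 2.10-fold higher. Ifi27l2a, the gene with one of the widest gaps between PFF + VH and PBS, was 3.86-fold higher, and Ifitm3 9.05-fold. Of the pathway, Irf7 was 22.5-fold and Stat2 7.12-fold higher in the picked MG, while Ifnar1, Ifnar2, Jak1 and Jak2 were at 0.860 to 0.930 of the rest. Such ratios were also seen outside PFF + VH. In PBS, monomer and PFF + AZD1480, Irf7 was 40.1-, 82.2- and 42.5-fold and Stat2 6.97-, 12.4- and 13.8-fold higher, over 58, 50 and 32 picked cells. The picked cells share the library and their counts are low, and these ratios were not tested.

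Border macrophages carried more of these genes than MG. In the order PBS, monomer, VH and AZD1480 the sum was 5908, 4946, 5001 and 4516 CPM, above MG in each library. T cells had 3835, 2925, 2673 and 2862 CPM, NK cells 3171, 3088, 2947 and 3021, and B cells 4168, 3123, 3396 and 3182. PFF + VH had the highest value for MG, and PBS the highest for each of the other 4 classes. Counts in the small classes were few, and the difference between classes in this order was not tested.

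Within hashtags, each class was set against MG of the same hashtags, with the hashtag as a block. The median over all genes was itself shifted, to -0.15 in border macrophages, -0.60 in T cells, -0.64 in NK cells and -1.02 in B cells, and with RLE in place of TMM scaling to -0.06, -0.48, -0.48 and -0.86, so that values are to be read against it. In border macrophages (8 hashtags with at least 10 cells), 22 of 42 genes tested were higher than in MG, against 9.28% of all genes, and 1 was lower, against 16.9% of all genes. The median log2 fold change was 0.87, against -0.15 over all genes tested. The lead was held by 2 genes of the Ifi200 family with Oas2, Samd9l and Ifitm3. Ifi207 was at 527 to 1029 CPM in border macrophages and 8.54 to 31.0 in MG, a log2 fold change of 5.33 ± 0.16 (edgeR adjusted p = 1.33e-79). Oas2 was at 0 to 84.9 CPM against 0.441 to 4.23 (4.11 ± 0.47), and Samd9l, which restricts protein synthesis in infected cells, at 10.6 to 103 CPM against 2.24 to 5.52 (3.42 ± 0.37). For Ifi204 the ranges were 73.8 to 311 and 6.74 to 26.7 CPM (3.38 ± 0.23), and for Ifitm3 316 to 1107 and 20.3 to 136 CPM (3.36 ± 0.15). In all but Oas2 among these 5, every border macrophage value lay above every MG value. Lgals9, galectin-9, was the 1 lower gene, at 40.2 to 142 CPM against 109 to 185 (-1.15 ± 0.19). All 22 higher genes were also higher in border macrophages of PBS, 21 with intervals apart, and 21 of 22 in monomer, 17 with intervals apart.

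Part of this count rests on PFF + AZD1480 hashtag 4. Without it, 16 genes were called, 14 higher, against 7.99% of all genes, and 2 lower (Lgals9 and Ifit2), against 14.8%, and the median log2 fold change was 0.23. All 14 were among the 22 above. The 8 that no longer passed were Oas1a, Usp18, Ifit3b, Ifit3, Xaf1, Isg15, Parp14 and Trim30a. The 5 leading genes named above were still higher, Ifi207 by 5.18 and Ifitm3 by 3.18 on the log2 scale. Without the hashtag block, 14 of 42 genes were called, 13 higher and 1 lower. Over all 10995 genes, 3097 were called, 1080 higher and 2017 lower.

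T cells (5 hashtags) had 5 of 41 genes higher than MG, against 8.23% of all genes, and 9 lower, against 21.3% of all genes. The median was -0.47, against -0.60 over all genes tested. With the genes of the set at 0 UMIs put at their bound it was -0.45, a step not taken for all genes. Samd9l was at 42.1 to 193 CPM in T cells and 2.24 to 5.39 in MG (log2 fold change 4.29 ± 0.51, edgeR adjusted p = 5.24e-16). Sp100, a component of nuclear bodies, was at 197 to 309 CPM against 19.95 to 45.2 (2.55 ± 0.27), and Epsti1 at 128 to 394 against 76.9 to 116 (1.23 ± 0.24). Helz2, a coactivator with a helicase domain, rested on 8 UMIs, and Ifi27l2a was 0.65 higher. These 5 genes were higher in T cells of PBS and of monomer too, all with intervals apart. Of the 9 lower genes, 6 lay in the same direction in PBS (4 with intervals apart) and 8 in monomer (7 apart), and Ifit2 was at 1.57 and 1.75 times MG there, from 12 and 10 UMIs and with intervals that overlapped. Of the lower genes, Lgals3bp was at 0 to 38.6 CPM against 67.2 to 156 (-2.76 ± 0.46), Tor3a had 2 UMIs (-3.19) and Phf11d and Ifit2 1 UMI each in T cells. Ifi207 had 0 UMIs in T cells, at least 2.34-fold lower than MG at a floor of 3 counts over the class. Ifi207, Tor3a, Phf11d and Ifit2 passed the filter on low counts through MG, and are counted among the 9. With a filter of at least 10 expected UMIs in the class, added after the data were seen, 9 of 17 genes tested were called, 5 higher, against 21.7% of all genes, and 4 lower, against 28.0%, and 8 of the 9 were among the 14. These shares are near those over all genes. The median then turned positive, at 0.12 against -0.10 over all genes tested.

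NK cells (4 hashtags, all of PFF + VH) had 3 of 45 genes higher, against 5.43% of all genes, and 8 lower, against 15.5% of all genes. The median was -0.40, against -0.64 over all genes tested. With the genes of the set at 0 UMIs put at their bound it was -0.38, a step not taken for all genes. Oas2, which lay below the floor in MG, had no bound and was set to 0 there. The 3 were Samd9l, at 0 to 302 CPM against 4.48 to 5.52 in MG (log2 fold change 3.64 ± 0.63, edgeR adjusted p = 1e-07), Sp100 at 164 to 388 against 41.98 to 52.3 (1.96 ± 0.32) and Epsti1 at 280 to 461 against 100 to 125 (1.22 ± 0.25). All 3 were higher in NK cells of PBS and monomer, with intervals apart. Ifi27l2a was lower in NK cells, with 2 UMIs and 0 to 23.4 CPM against 119 to 244 (-4.70 ± 0.60), while in T cells it was higher. Ifitm3 (-1.85), Trim30a (-1.78) and Bst2 (-1.73) were lower as well, and Ifi207 had 0 UMIs, at least 1.71-fold lower. Ifi207 and Ifi27l2a passed the filter on low counts through MG, and are counted among the 8. Of the 8 lower genes, 4 lay in the same direction in PBS (1 with intervals apart) and 5 in monomer (2 apart). Those above MG in PBS were Trim30a, Lgals3bp, Ly6e and Ifi27l2a, the last at 1.03 times MG. In monomer they were Bst2, Lgals3bp and Ly6e, the last at 1.15 times MG with intervals apart. At 10 expected UMIs, 8 of 16 genes tested were called, 3 higher, against 21.0% of all genes, and 5 lower, against 25.2%, which is again near the background, and the median turned to 0.01, against -0.05 over all genes tested. Lgals3bp and Ly6e no longer passed at 10 expected UMIs (adjusted p = 0.173 and 0.231).

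B cells had 2 hashtags with at least 10 cells, 1 of each treatment. The test called 3 of 42 genes higher, against 2.03% of all genes, and 2 lower, against 6.32% of all genes. Samd9l was at 95.5 and 257 CPM in B cells and at 3.52 and 4.88 CPM in MG (log2 fold change 5.08 ± 1.07). Sp100 was at 178 and 358 CPM against 23.0 and 43.4 (2.67 ± 0.52), and Ms4a4c at 59.4 and 143 CPM against 2.80 and 7.53 (3.97 ± 1.24). The median was -0.79, against -1.02 over all genes tested. For 10 genes with 0 UMIs in B cells, a floor of 3 counts was 32.45 CPM, above the MG level of all but Ifitm3. Genes without a bound were set to a log2 fold change of 0, which made the median 0, so that this value does not compare B cells with MG. Bst2 had 1 UMI in B cells, and Ifitm3 had 0 UMIs, at least 1.94-fold lower. Both lower genes passed the filter on low counts through MG. At 10 expected UMIs only Sp100 and Ly6e could be tested, and both were higher in B cells (3.05 and 1.31 on the log2 scale), where 19.5% of all genes were higher and 26.2% lower. The other 4 of the 5 calls above were therefore not tested under that filter. Samd9l and Sp100 were higher than in MG in all 3 lymphoid classes.

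**Figure D4:**
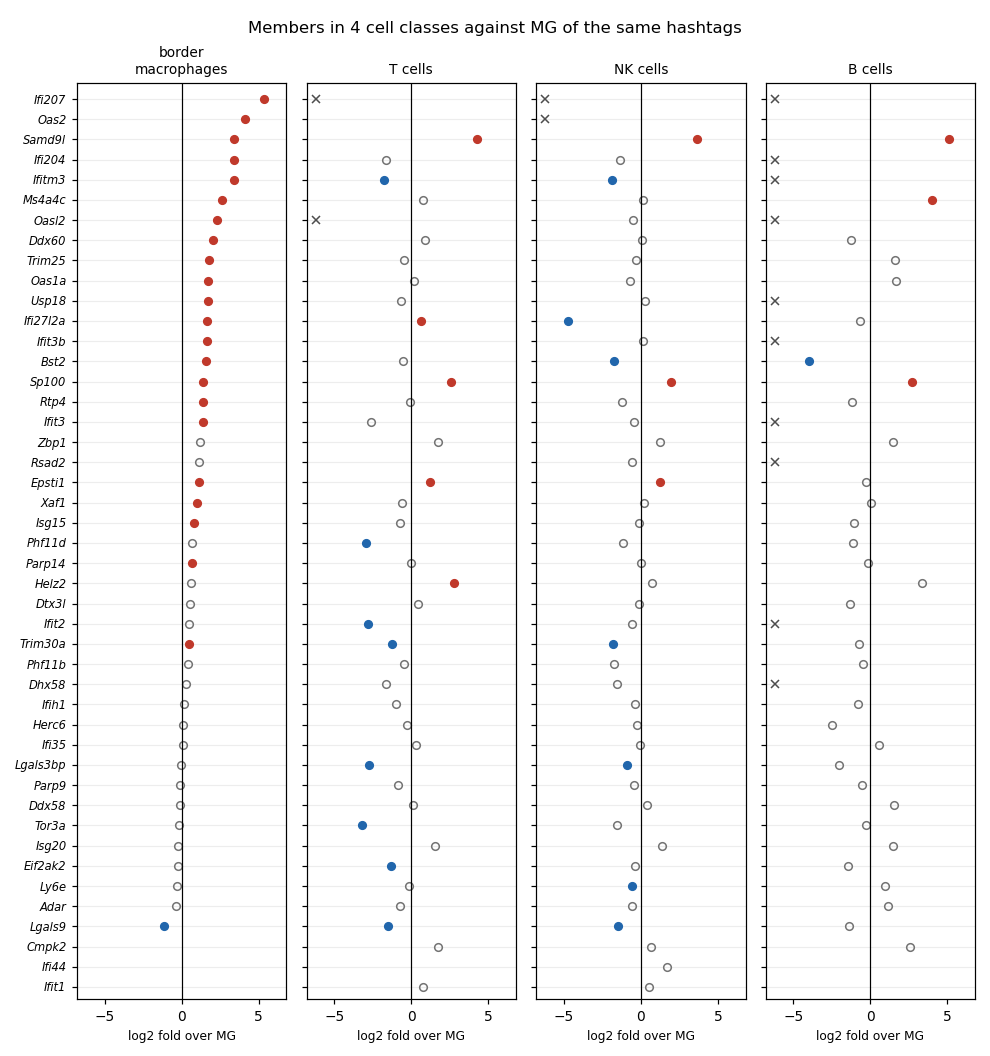
Log2 fold change of each gene in border macrophages, T cells, NK cells and B cells over MG of the same hashtags. Filled points passed an edgeR adjusted p of 0.05 (red higher, blue lower), open points did not, and crosses at the left edge mark genes with 0 UMIs in the class, for which no fold is drawn. The 22 red points of border macrophages run from Ifi207 at 5.33 to Trim30a at 0.44.

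The effect of AZD1480 in border macrophages could be tested for 13 genes, over 4 hashtags of each group. None was called, against 0.325% of all 2770 genes (edgeR), in a fit that missed most 2-fold changes on simulated data. At an unadjusted p under 0.05 there were 3 of the 13, namely Ly6e, Ifi27l2a and Ifi207, and 270 of the 2770 genes. DESeq2 called 0 of the 13 and 15 of the 2770. Ly6e was at 815, 736, 945 and 906 CPM with VH and at 557, 448, 651 and 550 CPM with AZD1480, which did not overlap (log2 fold change -0.61, adjusted p = 0.249). Ifi27l2a was at 475, 216, 797 and 487 CPM with VH and at 194, 167, 311 and 296 CPM with AZD1480, which overlapped (-0.98, adjusted p = 0.292). Ifi207 was at 609, 741, 664 and 527 CPM with VH and at 672, 1029, 883 and 899 CPM with AZD1480, so that 3 of 4 AZD1480 hashtags lay above every VH hashtag (0.45, adjusted p = 0.457). Markers of T cells summed to 25.7 to 236 CPM in the border macrophages of VH and 24.2 to 39.6 CPM in those of AZD1480, with 1 and 5 of 10 markers at 0. Markers of NK cells summed to 5.15 to 230 CPM with VH and 0 to 11.3 with AZD1480, with 3 and 8 of 10 at 0. The markers of border macrophages themselves were at 8597 to 12076 CPM with VH and 12062 to 16440 with AZD1480. The part of these lists in the values above was not tested. The effect of AZD1480 was not tested in the lymphoid classes, since the design asked for 3 hashtags of at least 10 cells in each group. T cells had 3 with VH and 2 with AZD1480, NK cells none with AZD1480 and B cells 1 of each. In border macrophages of the whole libraries, 23 of 46 genes were higher and 23 lower in PFF + AZD1480 than in PFF + VH.

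The AZD1480 effect was then compared between border macrophages and MG, a test added after the data were seen. Of 37 genes, 5 had a higher log2 fold change in border macrophages (edgeR), against 0.321% of all genes, and 0 a lower one, against 0.115%. On simulated data this fit missed most 2-fold changes in either direction, so the 0 says little. They were Ifi207 (difference 1.503 ± 0.252, adjusted p = 0.000278), Ifit2 (4.82 ± 1.02, adjusted p = 0.00758), Ifit3 (3.31 ± 0.73, adjusted p = 0.0120), Ifitm3 (1.10 ± 0.27) and Trim30a (1.29 ± 0.32), the last 2 at an adjusted p = 0.0393. Without PFF + AZD1480 hashtag 4, or without PFF + VH hashtag 2, Ifi207 alone passed (adjusted p = 0.00273 and 0.000256). Without PFF + VH hashtag 1, 3 or 4, there were 3, 3 and 2 genes. The Ifit2 value rests on 2 UMIs over the VH and 23 over the AZD1480 hashtags.

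AZD1480 hashtag 4 held a few border macrophages with many UMIs of the 14 counted genes, among which Ifi207, Ifitm3 and Trim30a are not. No fit left out these cells alone. Its 43 border macrophages held 211 UMIs of the 14 genes, against 10 to 48 in the other 7 hashtags tested. Of the 211, 146 (69.2%) lay in 3 cells, with 56, 50 and 40 UMIs of 12, 11 and 12 genes. Those cells had 6802 to 7854 UMIs in all. In PBS the highest border macrophages held 44, 40 and 23 UMIs of these genes, and in PFF + VH 8, 8 and 6, at a lower depth. Ifit3 was at 181 CPM in AZD1480 hashtag 4 and at 0, 5.75 and 21.1 CPM in the other 3, and Isg15 at 209 CPM and at 18.2, 11.5 and 31.7 CPM.

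**Figure D5:**
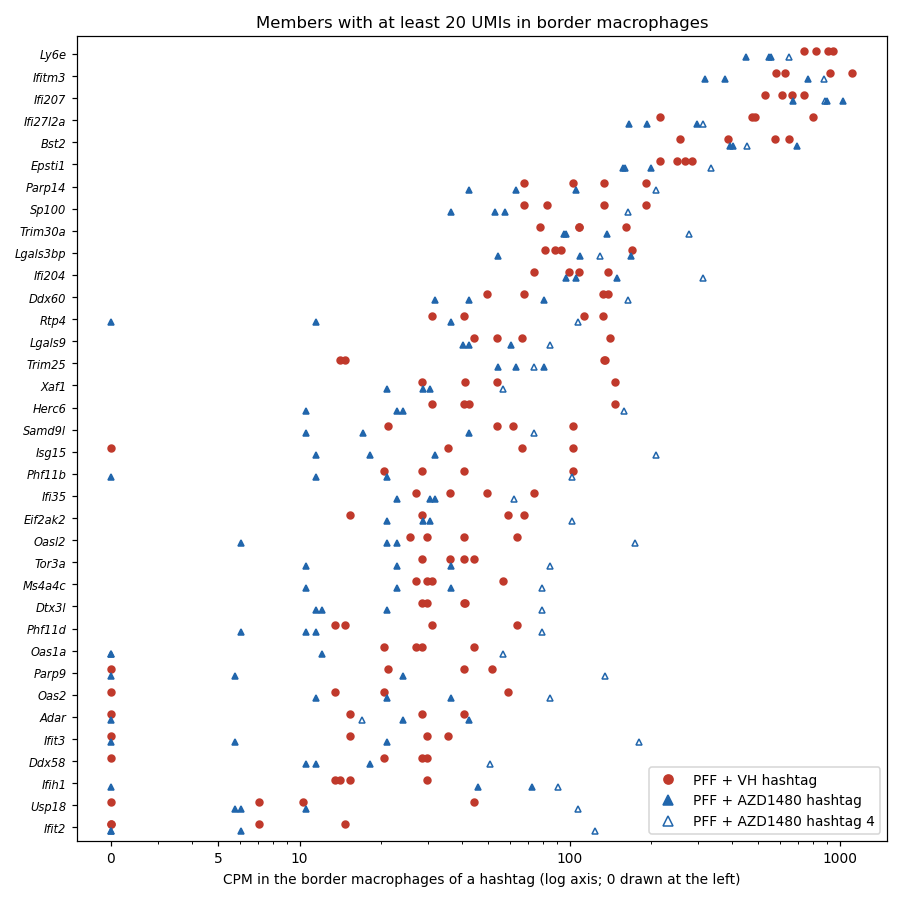
CPM in the border macrophages of each hashtag, on a log axis with 0 at the left edge, for the 36 genes with at least 20 UMIs over the 8 hashtags. Open triangles mark PFF + AZD1480 hashtag 4, which lies to the right of the other AZD1480 hashtags (filled triangles) and of the PFF + VH hashtags (circles) for genes such as Ifit3, Isg15 and Oasl2.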

How the data were processed

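CD45+ cells were sequenced by 10x 3′ gene expression, with 1 library per group and hashtag libraries for both PFF groups. The authors deposited raw UMI counts per gene and cell, made with Cell Ranger (version 7.0.1 in the file headers) on mm10; nothing was normalized. Cells with 500 to 15000 UMIs, 250 to 5000 genes and at most 10% mitochondrial UMIs were kept. MG needed 3 markers, 50 marker UMIs per 10000 and 3 times any other list; other classes needed 3 own markers and more of them than of any other list. No doublet caller was run; cells that met no class's rule were unassigned, so that cells with some markers of another class were kept, and cells with several hashtags left out of hashtag tests.

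Hashtags were called with HTODemux (Seurat 5.3.0, quantile 0.99). Counts were summed per hashtag and class with at least 10 cells and tested with edgeR 4.0.16 (quasi-likelihood, TMM, filterByExpr) in R 4.3.3, with Benjamini-Hochberg adjustment over all genes at 0.05. AZD1480 was compared with VH without a block, and classes with MG with the hashtag as a block. The fits were tested on simulated data. There the T and NK cell fits against MG made more false calls than the threshold sets and missed most 2-fold changes, and the B cell fit missed nearly all, so the filter at 10 expected UMIs was added, under which these fits still missed most 2-fold changes. The border macrophage fit against MG was slightly over the threshold too and missed most halvings. DESeq2 1.42.0, other filters, hashtag callers, thinning and leaving out each hashtag were alternatives. Shares used an exact permutation test (scipy 1.17.1) and exact 95% intervals, which cover counting error only. A gene at 0 was set against a floor of 3 counts over the class. Ifit3 and Ifit3b, and other close copies, are uncertain. Most counts of members called were set beside the share of all genes tested. The genes named were up to 12 of largest change in AZD1480 against VH, the 5 highest and 5 lowest of each class against MG, up to 10 per pair of libraries with at least 1.5-fold and intervals apart, and 13 examples of the roles; others, such as the genes that did not pass, were named after their values were seen. The members and lists were chosen with earlier results of these data known. Values of 1 pathway gene are not reported here.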

Additional observations from a re-analysis of the deposited data

Results flagged for a closer look

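In MG, 7 of 124 groups of hashtags had 1 hashtag far from the others, where chance flags about 1 in 20. With AZD1480, hashtag 4 was high for Rsad2 (3.08 CPM), hashtag 2 for Ifi27l2a (94.5 CPM) and Lgals3bp (123.1 CPM), and hashtag 3 was low for Phf11b (13.6 CPM) and Socs3 (299.1 CPM). With VH, hashtag 1 was high for Rtp4 (39.8 CPM) and hashtag 4 low for Trim30a (98.7 CPM).

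In border macrophages, 14 of 72 groups had such a hashtag, and for 10 of 36 genes it was AZD1480 hashtag 4, which was the high one each time. These were Ifit2 (124.5 CPM), Ifit3 (181.1), Isg15 (209.3), Oasl2 (175.4), Usp18 (107.5), Dtx3l (79.2), Herc6 (158.4), Phf11d (79.2), Eif2ak2 (101.8) and Sp100 (164.1). With VH, hashtag 3 was high for Ifih1 (29.5 CPM) and Herc6 (147.6), and hashtag 1 for Lgals3bp (170.1) and Ms4a4c (56.7). Over the 4 VH hashtags these genes had only 8, 25, 54 and 18 UMIs in that order.

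The effect of AZD1480 differed between border macrophages and MG for 5 genes by the test of the difference itself. On the log2 scale the difference was 1.503 for Ifi207, 4.82 for Ifit2, 3.31 for Ifit3, 1.29 for Trim30a and 1.10 for Ifitm3. Without AZD1480 hashtag 4 it was 1.40 for Ifi207, 0.84 for Ifit3, 0.97 for Trim30a and 0.85 for Ifitm3, of which Ifi207 alone passed.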

How the results depend on the processing

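The fall of these genes with AZD1480 in MG was called for 35 of 46 with MULTIseqDemux, where 734 of 13544 genes fell. After thinning to 1000 UMIs it was called for 35 of 40, where 921 of 10699 genes fell. With no filter on low counts it was called for 45 of 47, where 1999 of 23816 genes fell. It was called for 43 or 44 when each hashtag was left out. MULTIseqDemux gave a single hashtag to 16.9% of PFF + VH cells. In the cell-by-cell count its VH hashtags 1, 2 and 3 held 4790, 274 and 50 MG, and its share test had 3 VH hashtags. Hashtags of the same number did not deviate together (r between -0.04 and 0.06), which cannot show whether the numbers pair the samples. With the number as a replicate block 44 of 46 genes fell in MG, where 1729 of 13632 genes fell. In border macrophages 0 of 13 were then called, where 7 of 2770 genes were called. Pathway genes called fell to 8 with MULTIseqDemux, where 1104 of 13544 genes were called. Border macrophages against MG had 14 of 42 genes called with no replicate block, where 3097 of 10995 genes were called. With each hashtag left out they had 16 to 24 calls, where 2513 to 2822 genes were called over all. T cells had 8 of 41 with no replicate block, where 3918 of 11941 genes were called. At 10 expected UMIs T cells had 9 of 17, where 2531 of 5084 genes were called. B cells had 3 of 42 with DESeq2 (434 of 12047 over all genes) and 2 of 2 at 10 expected UMIs (707 of 1545). AZD1480 against VH in border macrophages had 0 or 1 call with each hashtag left out, where 5 to 18 genes were called over all. The difference of the AZD1480 effect between classes had 1 to 6 calls with each hashtag left out, where 21 to 42 genes were called over all. With filterByExpr it had 11 of 42, where 68 of 10995 genes were called. The filter at 10 expected UMIs and this difference were chosen after the data were seen. The cause of these shifts was not tested.

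Without Ifitm3, Bst2, Ly6e, Ifi27l2a and Lgals3bp, the summed CPM in PBS, monomer, PFF + VH and PFF + AZD1480 was 980.6, 980.9, 1279 and 797.0 in MG, 2950, 2376, 2386 and 2652 in border macrophages, 2232, 1682, 1268 and 1590 in T cells, 2265, 2024, 1786 and 1886 in NK cells, and 2023, 1196, 1406 and 1259 in B cells. PFF + VH stayed the highest library in MG and PBS in the other 4 classes. Over the genes named by the rule alone, 35 values under an alternative lost their call, 22 of them in T cells; besides these, 8 border macrophage genes lost theirs without AZD1480 hashtag 4. The B cell test could not be fitted with a hashtag left out, nor the T and B cell tests with the stricter marker limit. Few cells limit the lymphoid classes, and 1 library per group limits every library ratio.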
